A study of Danio rerio with 9 samples.

Results

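The erythroid regulators and band 3 are described here through 8 zebrafish genes, *gata1a*, *klf1*, *tal1*, *lmo2*, *hemgn*, *epoa*, *epor* and *slc4a1a*, each found in the table of kidney gene counts by its exact gene symbol. All 8 symbols were matched, each to a single gene, among the 30628 genes of the table. The series compared male with female zebrafish kidneys by RNA sequencing. The fish were 12-month-old animals of WIK, a wild-type laboratory strain, the genotype was given as wild type for every sample, and no treatment was named. Male kidneys gave 4 libraries (M1, M2, pkd1M1 and pkd1M4) and female kidneys gave 5 (F1, F2, F3, F4 and F6). The columns of pkd1M1 and pkd1M4 carry pkd1, the name of a polycystic kidney disease gene, beside the abbreviation for wild type, and what this name marks is not given in the sources used here.

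Red blood cells of adult zebrafish are made in the kidney, where the blood-forming marrow lies between the tubules. Progenitors become erythroid under DNA-binding regulators such as Gata1, Klf1 and Tal1, and the hormone erythropoietin keeps the young red cells alive through its receptor. Maturing cells then fill with globin and put band 3, an anion exchanger, into their membrane. Each library therefore held RNA of red cells, other blood cells and tubules.

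Total estimated counts were 24902978 to 52986838 in male libraries and 30714070 to 38758188 in female libraries. Levels are given as CPM (counts scaled to a common library size) after TMM normalization, which corrects for differences in library composition. Male and female libraries were compared across 22148 genes by the quasi-likelihood test in edgeR. A gene was called where its Benjamini-Hochberg adjusted p was under 0.05 and its log2 fold change was beyond 1.5 in either direction. Positive log2 fold changes are higher in males. By these thresholds 771 genes were higher and 677 lower in males (582 higher and 926 lower when libraries were scaled by total counts alone, which moved the median log2 fold change of all genes to -0.23, against -0.03 with TMM). The summed level of 9 tubule markers was 4349 to 5259 CPM in males and 1591 to 4311 CPM in females, with no overlap, and each of the 9 was detected in every library. F6 had the 4311 CPM, close to the males, while F1, F2, F3 and F4 had 1591 to 2409 CPM. Singly, 2 of the 9 had no overlap between the sexes, against 16.5% of all genes tested. At an edgeR adjusted p under 0.05, 5 of the 9 were higher in males, against 7.02% of all genes, and 1 of the 9 had a log2 fold change below 0. The 13 red cell marker genes, globins and haem enzymes among them, summed to 11888 to 43423 CPM in males and 16678 to 52980.2 CPM in females, and 0 of the 13 had an adjusted p under 0.05 by edgeR (2 had an unadjusted p under 0.05). Library pkd1M4 had the lowest red cell sum and F6 the highest. Most of each sum was globin RNA, and in F6 a single gene listed as *hbba1* (ENSDARG00000089087) had 25410 CPM. No red cell marker other than a globin was highest in F6, and *rhag*, at 117 CPM, was lowest there. Summed oocyte markers were 42.7 to 103 CPM in males and 68.7 to 2323 CPM in females, and library F1, with the highest value, stood apart. Nothing in the labels ties a library to a single fish, so the p-values measure the spread between these libraries.

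None of the 8 genes was called between male and female kidneys. By edgeR, 0 of 8 passed both thresholds, where 6.54% of all genes tested did (3.48% higher and 3.06% lower in males), and 0 of 8 had an adjusted p under 0.05, where 13.2% of all genes did (7.02% higher and 6.2% lower in males). At an unadjusted p under 0.05 there was 1 of 8 (*lmo2*), against 26.8% of all genes, and DESeq2 also called 0 of 8. The median log2 fold change of the 8 genes was -0.14, against -0.03 over all genes tested. Their median absolute log2 fold change was 0.36, against 0.57 over all genes tested. In bulk kidney, fewer cells of a type and less RNA per cell cannot be told apart, so none of these values is a level per red cell.

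*gata1a* (ENSDARG00000013477, chromosome 11 from 25411914 to 25418856, GRCz11) encodes the zinc finger factor that commits progenitors to the red cell line. It had 33.5, 46.6, 25.1 and 14.5 CPM in male libraries M1, M2, pkd1M1 and pkd1M4, against 19.5, 25.8, 19.9, 19.1 and 24.4 CPM in female libraries F1, F2, F3, F4 and F6. M1 and M2 stood above every female library, pkd1M4 stood below every one, and pkd1M1 lay within the female range. The log2 fold change was 0.46 ± 0.30 (SE), with a 95% interval of -0.19 to 1.12 and an edgeR adjusted p of 0.369. Without the 2 libraries named with pkd1 it was 0.88 (edgeR adjusted p = 0.0810).

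*klf1* (ENSDARG00000017400, chromosome 6 from 8129543 to 8140958) encodes a Krüppel-like factor that in mammals switches on adult beta-globin and other late red cell genes. Male libraries M1, M2, pkd1M1 and pkd1M4 had 24.1, 35.2, 21.9 and 11.5 CPM, and female libraries F1, F2, F3, F4 and F6 had 26.2, 39.8, 34.8, 18.3 and 21.6 CPM. The ranges overlapped over most of their length, with pkd1M4 lowest and F2 highest. *klf1* thus had a log2 fold change of -0.28 ± 0.33 (SE; 95% interval -1.01 to 0.45, edgeR adjusted p = 0.663). It changed sign, to 0.072, without the libraries named with pkd1.

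*tal1* (ENSDARG00000019930, chromosome 22 from 16535575 to 16545330) encodes a basic helix-loop-helix factor needed for blood stem cells and for red cell genes. Its levels were 40.8, 59.3, 58.3 and 44.0 CPM in M1, M2, pkd1M1 and pkd1M4, against 38.9, 62.0, 49.5, 28.3 and 44.9 CPM in F1, F2, F3, F4 and F6. All 4 male libraries lay inside the female range. Between the sexes, the log2 fold change was 0.18 ± 0.23 (SE; 95% interval -0.34 to 0.70, edgeR adjusted p = 0.700), and it was -0.00025 when libraries were scaled by total counts alone.

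*lmo2* (ENSDARG00000095019, chromosome 18 from 38288877 to 38296665) encodes the LIM-only adaptor that joins Tal1 to Gata factors, and it is also used by blood stem cells and endothelium. It had 28.5, 26.2, 31.7 and 20.5 CPM in male libraries M1, M2, pkd1M1 and pkd1M4, and 34.8, 36.2, 38.5, 33.5 and 38.1 CPM in female libraries F1, F2, F3, F4 and F6. Every male library was below every female library, as for 8.06% of all genes tested, and *lmo2* was the only one of the 8 genes whose sexes did not overlap (16.5% of all genes tested, with 8.42% higher in males). The mean was 26.7 ± 4.71 CPM in males (SD, n = 4) and 36.2 ± 2.17 CPM in females (SD, n = 5). The log2 fold change was -0.44 ± 0.17 (SE), a male level 0.738 times the female level (95% interval 0.569 to 0.956), with an edgeR adjusted p of 0.122. The adjusted p was 0.0317 in edgeR with total counts alone, and ranged from 0.0317 to 0.618 over the 17 alternatives, with a log2 fold change below 0 in all 17. Without F1 the log2 fold change was -0.45 (edgeR adjusted p = 0.179).

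Other cells that use *lmo2* gave sums that overlapped between the sexes but reached lower in males. The 12 endothelial markers summed to 375 to 572 CPM in males and 466 to 628 CPM in females. They moved in both directions, with 6 of 12 below 0, a median log2 fold change of 0.12, and 1 higher and 1 lower at an edgeR adjusted p under 0.05 (the receptor gene *kdrl* was the higher, at 0.76 ± 0.22, SE, edgeR adjusted p = 0.0430, and the factor gene *fli1b* the lower, at -0.77 ± 0.17, SE, edgeR adjusted p = 0.0160). The 8 thrombocyte marker genes summed to 186 to 263 CPM in males and 251 to 342 CPM in females, and the 7 markers of blood stem and progenitor cells to 120.3 to 188 CPM in males and 158 to 249 CPM in females. Of the thrombocyte genes 6 of 7 tested were below 0 (median -0.38), and of the stem and progenitor markers 5 of 7 (median -0.12), against 51.8% of all genes tested. The lower reach of the thrombocyte sum in males leaned on *selp*, with 53.6 to 65.7 CPM in males and 88.9 to 140 CPM in females. It was the 1 of the 7 without overlap, against 16.5% of all genes tested. The thrombocyte marker *itga2b* had a log2 fold change of 0.43. No endothelial or stem cell marker was at 0 in every library. Their part in the *lmo2* values was not tested.

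*hemgn* (ENSDARG00000096667, chromosome 1 from 26667872 to 26671210) encodes hemogen, a nuclear protein of blood cells that in mammals acts in red cell maturation. Its levels were 241, 323, 245 and 126 CPM in M1, M2, pkd1M1 and pkd1M4, and 243, 436, 369, 223 and 319.9 CPM in F1, F2, F3, F4 and F6. The male libraries reached lower and the female libraries higher, with 3 of 4 males below the female median. The log2 fold change was -0.44 ± 0.29 (SE; 95% interval -1.08 to 0.19, edgeR adjusted p = 0.375). Its size matched that of *lmo2*, but its SE was larger and its sexes overlapped.

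Of the ligand and its receptor, *epoa* (ENSDARG00000055163, chromosome 7 from 21890473 to 21918432) encodes erythropoietin, which in adult mammals comes mainly from the kidney. It rested on few counts, which were 63, 54, 167 and 79 in M1, M2, pkd1M1 and pkd1M4, and 54, 94, 5, 30 and 18 in F1, F2, F3, F4 and F6. These corresponded to 2.73, 1.80, 3.57 and 2.63 CPM in male libraries M1, M2, pkd1M1 and pkd1M4, and to 1.503, 2.65, 0.121, 0.684 and 0.601 CPM in female libraries F1, F2, F3, F4 and F6. All 4 males were above the female median, but F2 reached above 2 of the males. The log2 fold change was 1.27 ± 0.78 (SE), with a 95% interval of -0.45 to 2.99 and an edgeR adjusted p of 0.344. The highest and lowest libraries differed 29.5-fold. Leaving out 1 library at a time gave log2 fold changes from 0.98 (without F3) to 1.88 (without F2), and over M1, M2, F1 and F2 alone, without a block, the value was 0.12. The second erythropoietin gene, *epob*, had 0.620 to 2.12 CPM in males and 0.169 to 2.28 CPM in females (log2 fold change 0.49 ± 0.83, SE, edgeR adjusted p = 0.774).

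*epor* (ENSDARG00000090834, chromosome 3 from 14543953 to 14561096) encodes the erythropoietin receptor, which signals through Jak2 and Stat5. It had 6.63, 19.4, 16.2 and 6.24 CPM in M1, M2, pkd1M1 and pkd1M4, against 9.83, 16.9, 12.4, 9.55 and 16.8 CPM in F1, F2, F3, F4 and F6. The male libraries split into 2 below every female library (M1 and pkd1M4) and 2 in the upper part of the female range or above it (M2 and pkd1M1), and neither set follows the pkd1 names. For the receptor gene the log2 fold change was -0.11 ± 0.39 (SE; 95% interval -0.97 to 0.74, edgeR adjusted p = 0.895). It was 0.088 without M1 and 0.10 without pkd1M4.

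*slc4a1a* (ENSDARG00000012881, chromosome 3 from 20065861 to 20092124) encodes band 3, which exchanges chloride for bicarbonate and ties the red cell skeleton to the membrane. In mammals a shorter form of band 3 is also made by acid-secreting cells of the kidney collecting duct. Its levels were 752, 939, 559.7 and 324 CPM in male libraries M1, M2, pkd1M1 and pkd1M4, and 659, 1030.4, 847, 466 and 623 CPM in female libraries F1, F2, F3, F4 and F6. The ranges overlapped, with pkd1M4 lowest and F2 highest, as for *klf1* and *hemgn*. For band 3 the log2 fold change was -0.17 ± 0.32 (SE; 95% interval -0.87 to 0.53, edgeR adjusted p = 0.794), and it was 0.048 without pkd1M4 and 0.22 without both libraries named with pkd1. Its paralog *slc4a1b* had 0.385 to 2.60 CPM in males and 0.0228 to 0.724 CPM in females (log2 fold change 1.87 ± 0.98, SE, edgeR adjusted p = 0.259).

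**Figure D1:**
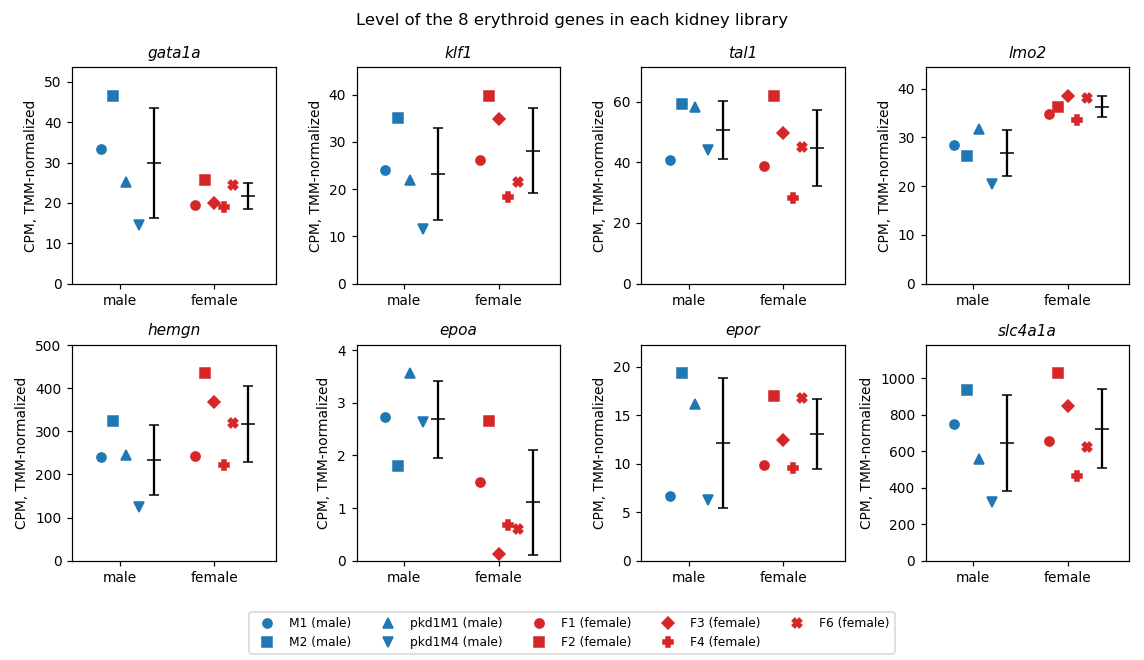
TMM-normalized CPM (vertical axes, each starting at 0) of the 8 genes in the 4 male and 5 female kidney libraries, with a symbol for each library and, beside them, the mean and SD of each sex. Only *lmo2* separates the sexes, as 16.5% of all genes tested did in either direction, with males at 20.5 to 31.7 CPM and females at 33.5 to 38.5 CPM. The downward triangle of pkd1M4 is the lowest point in 6 of the 8 panels.

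**Figure D2:**
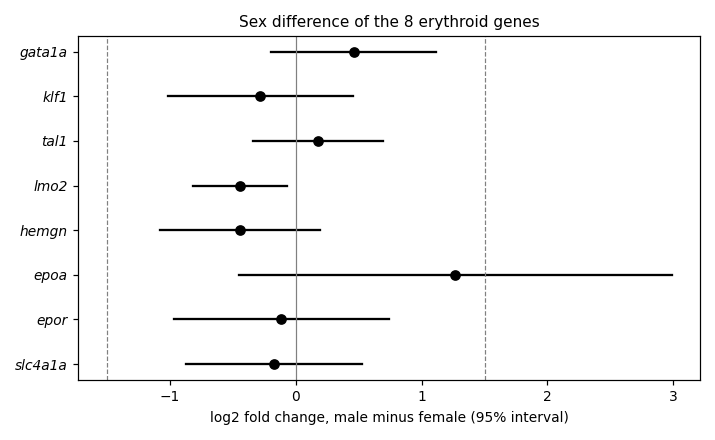
Log2 fold change of each of the 8 genes, male minus female (horizontal axis), with its 95% interval from edgeR's quasi-likelihood test. Dashed lines mark the fold threshold of 1.5 in each direction. The intervals are not adjusted for the number of genes. That of *lmo2* (-0.81 to -0.07, edgeR adjusted p = 0.122) alone leaves out 0, where 26.8% of all genes tested had an unadjusted edgeR p under 0.05. The interval of *epoa* (-0.45 to 2.99) is the widest.

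The intervals of the 8 genes, as drawn in the plot of log2 fold changes, give the sizes of sex difference that lay within the error of these libraries. For *gata1a*, *klf1*, *tal1*, *lmo2*, *hemgn*, *epor* and *slc4a1a* both ends of the interval stayed within the fold threshold of 1.5. The interval of *epoa* reached beyond it on the male side. Library pkd1M4 was the lowest of all 9 libraries for 6 of the 8 genes, and F2 the highest for 4 of the 8. The low place of pkd1M4 was not limited to red cell genes. It also had the lowest summed markers of stem and progenitor cells, endothelium, neutrophils and macrophages, though not of thrombocytes or lymphocytes. Its summed tubule markers were the highest, at 5259 CPM.

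The genes differed in how much they varied within a sex. The coefficient of variation (CV, the SD as a percent of the mean) of *lmo2* was 17.6% in males and 5.98% in females. Over the 13676 genes with a mean of at least 5 CPM the median CV was 27.7% in males and 27.3% in females, and 0.899% of these genes had a lower female CV than *lmo2*. *gata1a* had a CV of 45.4% in males and 14.4% in females, while *epor* had 55.2% in males and 27.5% in females. *klf1*, *hemgn* and *slc4a1a* varied by 34.8% to 41.8% in males and by 27.8% to 32.0% in females. These CVs were not compared by a test.

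The levels of *klf1*, *hemgn* and *slc4a1a* moved together over the 9 libraries. Correlations of log2(CPM + 0.5) were tested for the 21 pairs of 7 genes, with *lmo2* left out because its sexes form separate groups. *lmo2* was thus left out after its values were seen. An adjustment over all pairs of the 8 genes was not computed, and it could be stricter. For *klf1* and *slc4a1a*, Pearson's r was 0.979 (exact permutation test over 362880 orders, 2-sided, p = 3.31e-05, adjusted p = 0.000694) and Spearman's rho was 0.967 (exact permutation p = 0.000165, adjusted p = 0.00347). Leaving out F2 and pkd1M4, the libraries farthest from the median of *klf1*, gave an r of 0.934, and leaving out both libraries named with pkd1 gave 0.953.

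*hemgn* followed the same libraries. With *klf1* it had an r of 0.924 (exact permutation adjusted p = 0.00754) and a rho of 0.833 (exact permutation adjusted p = 0.0434), and r was 0.731 without F2 and pkd1M4 and 0.813 without the libraries named with pkd1. With *slc4a1a* it had an r of 0.910 (exact permutation adjusted p = 0.00754) and a rho of 0.833 (exact permutation adjusted p = 0.0434), and the same omissions gave 0.697 and 0.781. Of the 21 pairs tested without *lmo2*, these were the 3 past an adjusted p of 0.05 for both measures. In the pairs of *hemgn*, the exact permutation adjusted p of 0.0434 for rho lay near that limit. It could exceed the limit with the *lmo2* pairs added. For *hemgn* and *epor* rho was 0.850 (exact permutation adjusted p = 0.0434) and r was 0.755 (exact permutation adjusted p = 0.0669). The points share their libraries, and summed red cell markers also varied between these libraries, so the correlations are over libraries whose summed red cell marker RNA also differed.

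With the sexes pooled, *gata1a* had a lower r with band 3 than *klf1* or *hemgn* had. Its r with *slc4a1a* was 0.691 (exact permutation p = 0.0397, adjusted p = 0.167). It was 0.330 without M2 and pkd1M4, the libraries farthest from the median of *gata1a*, an omission that also narrows the range of levels. Leaving out 1 library at a time gave 0.513 to 0.793, and leaving out both libraries named with pkd1 gave 0.540. The pooled r also takes in the offset between the sexes in the ratios given below. The log2 ratio of *gata1a* to *slc4a1a* had an SD of 0.07 in males and 0.37 in females. For *klf1* to *slc4a1a* the SD was 0.12 in males and 0.09 in females. For *tal1* and *slc4a1a* r was 0.537 over all 9 libraries (exact permutation adjusted p = 0.265). It was 0.947 over the 7 libraries not named with pkd1, but 0.267 without F2 and F4, the libraries farthest from the median of *tal1*. The correlations of *epoa* with the other 6 genes ran from -0.33 to 0.35, with exact permutation adjusted p-values of 0.462 or more. Correlations within a sex, over 4 and 5 libraries, were not computed.

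**Figure D3:**
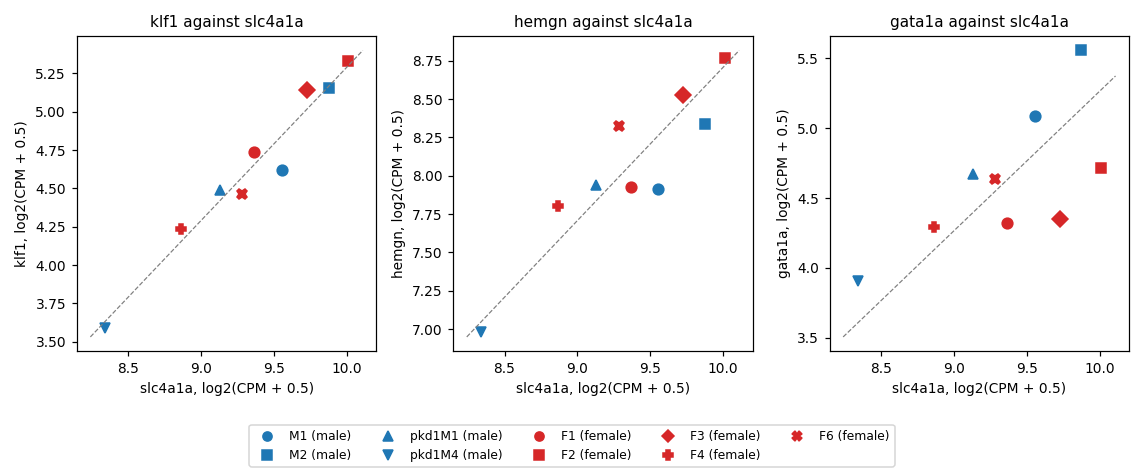
Levels of *klf1*, *hemgn* and *gata1a* (vertical axes) against *slc4a1a* (horizontal axes), all as log2(CPM + 0.5), in 4 male (blue) and 5 female (red) libraries, with a dashed line of constant ratio through the mean. The points of *klf1* lie close to the line (r = 0.979), while for *gata1a* all 4 males lie above all 5 females relative to the line (exact permutation adjusted p of the ratio 0.258).

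Each gene was next set against band 3 of the same library, which removes the variation that the gene and *slc4a1a* share. The ratios are of CPM + 0.5 without correction for transcript length, so they can be compared between libraries but not between genes. Ratios to the summed red cell markers are mostly ratios to globin RNA, which made up most of that sum. Of 15 ratios, to *slc4a1a* or to the summed red cell markers, 0 passed an adjusted p of 0.05 by the exact permutation test over 126 splits (2-sided, smallest possible p 0.00794), and 1 had an unadjusted p under 0.05.

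That 1 was *gata1a* to *slc4a1a*. *gata1a* stood at 4.52%, 5.01%, 4.56% and 4.63% of the *slc4a1a* value in male libraries M1, M2, pkd1M1 and pkd1M4, against 3.03%, 2.55%, 2.40%, 4.20% and 3.99% in female libraries F1, F2, F3, F4 and F6. All 4 males were above all 5 females, and the male libraries lay close together although their *gata1a* levels differed 3.21-fold. The share of all genes whose ratio to *slc4a1a* separates the sexes was not computed, so how common this is cannot be said. The log2 ratio of *gata1a* to *slc4a1a* averaged -4.42 ± 0.07 in males (SD, n = 4) and -4.99 ± 0.37 in females (SD, n = 5), a difference of 0.57 (exact permutation p = 0.0238, adjusted over the 15 ratios p = 0.258). Leaving out each library in turn gave differences from 0.47 to 0.67, and leaving out F1 gave 0.55. Against the summed red cell markers the *gata1a* difference was 0.78 (exact permutation p = 0.0556, adjusted p = 0.258), and there 1 of 4 males was above all females.

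*klf1* kept nearly the same ratio to band 3 in every library. It stood at 3.27%, 3.80%, 4.01% and 3.71% of the *slc4a1a* value in M1, M2, pkd1M1 and pkd1M4, and at 4.04%, 3.91%, 4.16%, 4.04% and 3.54% in F1, F2, F3, F4 and F6. The highest and lowest ratios differed 1.27-fold, while *klf1* itself differed 3.45-fold over these libraries and *slc4a1a* 3.18-fold. *hemgn* ran at 32.1% to 43.8% of *slc4a1a* in males and 36.9% to 51.4% in females, so that the highest and lowest differed 1.60-fold (log2 difference -0.25, exact permutation p = 0.103, adjusted p = 0.258).

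The ratio of *tal1* to band 3 was highest in the libraries named with pkd1. It was 5.48% and 6.37% in M1 and M2 and 10.5% and 13.7% in pkd1M1 and pkd1M4, against 5.97%, 6.06%, 5.90%, 6.16% and 7.28% in F1, F2, F3, F4 and F6. The log2 difference between the sexes was 0.43 with all libraries (exact permutation p = 0.222, adjusted p = 0.461) and -0.082 without the libraries named with pkd1. From high to low, *tal1* itself ranked 3 in pkd1M1 and 6 in pkd1M4, while *slc4a1a* ranked 7 and 9. Against the summed red cell markers the log2 ratio of *tal1* was -9.10 in pkd1M1 and -8.06 in pkd1M4. There F4, at -9.18, lay close to pkd1M1. *lmo2* to *slc4a1a* ranged from 2.84% to 6.48% in males and from 3.56% to 7.28% in females, so that the separation of the sexes seen in the *lmo2* level did not appear in the ratio (log2 difference -0.22, exact permutation adjusted p = 0.750). *epor* to *slc4a1a* was 0.948% to 2.98% in males and 1.53% to 2.77% in females. *epoa* to *slc4a1a*, which rested on few *epoa* counts, was also highest in pkd1M1 and pkd1M4, at 0.726% and 0.967%. It was 0.430% and 0.245% in M1 and M2 and 0.0733% to 0.306% in females. Its log2 difference was 1.40 (exact permutation p = 0.0635, adjusted p = 0.258), with 3 of 4 males above all females. Against the summed red cell markers it was 1.61 (exact permutation p = 0.0714, adjusted p = 0.258).

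**Figure D4:**
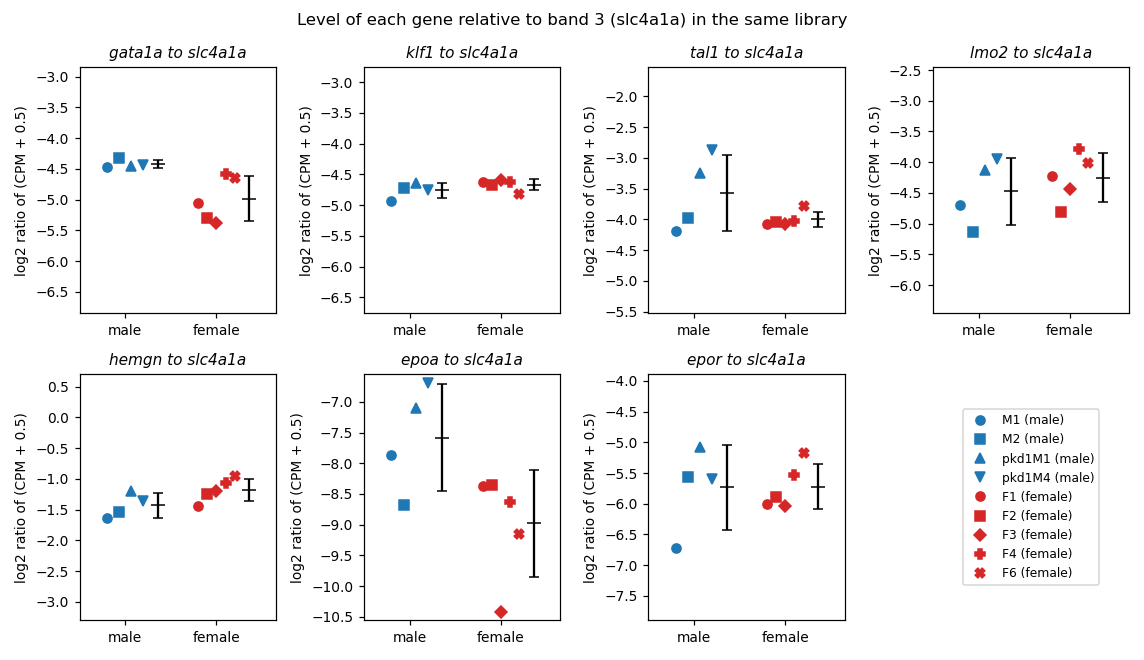
Log2 ratio of CPM + 0.5 of each of 7 genes to band 3 (*slc4a1a*) in the same library (vertical axes, each spanning the same number of log2 units), for 4 male and 5 female libraries, with the mean and SD of each sex. The males of *gata1a* lie close together and above all females (exact permutation adjusted p = 0.258), and *klf1* is nearly level across all 9 libraries. The upward and downward triangles of pkd1M1 and pkd1M4 stand highest for *tal1* and for *epoa*.

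The genes whose pattern over the 9 libraries was most like each of the 8 were ranked among 13005 genes with a symbol and a mean of at least 5 CPM. This ranking is a description over the same 9 libraries, with no test. For *slc4a1a* the first was *klf1* (r = 0.979), followed by *reep3b* (0.958) and *carhsp1* (0.952), and for *klf1* the first was *slc4a1a*, followed by *ctdp1* (0.960) and *carhsp1* (0.956). In the *slc4a1a* ranking, *cahz*, which encodes a red cell carbonic anhydrase, came 4th (0.925), *hemgn* 10th (0.910), the globin genes *hbaa2* and *hbba2* 18th and 22nd (0.886 and 0.873), and *gata1a* 313th (0.691). The other red cell markers ranked were spread widely. *blvrb* came 32nd (0.854), *urod* 40th (0.837), the genes listed as *hbba1* 68th and 107th, *hbaa1* 108th and *alas2* 109th. Further down were *rhag* at 118th (0.775), *tfr1a* at 791st (0.587) and *nt5c3a*, which ran the other way, at 9073rd (-0.206). For *hemgn* the leading genes were *cahz* (0.982), *hdlbpb* (0.964) and *CABZ01068469.1* (0.958). For *gata1a* they were *nprl3* (0.915), *abcb10* (0.909), which encodes a mitochondrial transporter used in haem synthesis in mammals, and *cyp2j20* (0.909).

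*cahz* was the only listed red cell marker among the 3 leading genes of any of the 8. For *tal1* the leading genes were *si:dkey-7j14.5* (0.914), *rad23ab* (0.912) and *si:ch1073-170o4.1* (0.903). For *lmo2* they were the histone demethylase gene *kdm4aa* (0.967), the histone gene *macroh2a2* (0.965) and the leukotriene receptor gene *ltb4r* (0.959). Those of *epoa* were *dhrs1* (0.946), *klhl21* (0.938) and *adgra1a* (0.937), and those of *epor* were the mitochondrial kinase gene *pink1* (0.968), *exoc3l4* (0.945) and *ivns1abpb* (0.927).

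Beyond the 8 genes, 25 partners and opponents of the erythroid regulators were tested. At an adjusted p under 0.05, 1 was higher and 3 were lower in males, a share close to the 13.2% of all genes tested, and 0 passed the fold threshold as well by edgeR or DESeq2. At an unadjusted edgeR p under 0.05 there were 9 of 25, against 26.8% of all genes. The median log2 fold change was -0.30, against -0.03 over all genes tested. *klf3*, which encodes a Krüppel-like repressor that acts against Klf1 at shared targets in mammals, was the higher one. It averaged 43.3 ± 10.7 CPM in males (SD, n = 4) and 24.8 ± 4.13 CPM in females (SD, n = 5), a log2 fold change of 0.81 ± 0.21 (SE, edgeR adjusted p = 0.0323). Every male library was above every female library, as for 8.42% of all genes tested.

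The 3 lower genes also separated the sexes, as 8.06% of all genes tested did with males lower. Of the 25 partners and opponents 6 had no overlap, against 16.5% of all genes in either direction. *spi1b*, whose product Pu.1 drives the myeloid line and blocks Gata1, averaged 145 ± 33.2 CPM in males (SD, n = 4) and 372 ± 78.9 CPM in females (SD, n = 5), a log2 fold change of -1.36 ± 0.23 (SE, edgeR adjusted p = 0.00379). The macrophage markers, 8 genes led by *cd74a* and *marco*, summed to 739 to 1265 CPM in males and 1749 to 2871 CPM in females, and the 9 neutrophil marker genes to 3491 to 6291 CPM in males and 5622 to 9193 CPM in females. Their part in the *spi1b* difference was not tested. *klf6a*, another Krüppel-like factor gene, had a log2 fold change of -0.87 ± 0.20 (SE, edgeR adjusted p = 0.0190). *ldb1b*, which encodes a LIM-binding protein of the Tal1, Lmo2 and Gata1 complex, averaged 2.98 ± 1.12 CPM in males (SD, n = 4) and 7.50 ± 1.60 CPM in females (SD, n = 5), which gave a log2 fold change of -1.33 ± 0.36 (SE, edgeR adjusted p = 0.0355). Its paralog *ldb1a* had 46.8 ± 3.47 CPM in males (SD, n = 4) and 45.3 ± 2.50 CPM in females (SD, n = 5), a log2 fold change of 0.04 ± 0.14 (SE).

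The next smallest p-values in that list belonged to *tcf3b*, an E-protein gene whose product pairs with Tal1 (log2 fold change 0.43 ± 0.15, SE, edgeR adjusted p = 0.0967), and *ssbp3a*, whose product binds Ldb1 (0.78 ± 0.30, SE, edgeR adjusted p = 0.122). The Gata1 cofactor gene *zfpm1* and the repressor gene *gfi1b* had adjusted p-values of 0.839 and 0.410 by edgeR.

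Of 17 genes of erythropoietin signalling tested, *epob* and genes downstream of the receptor, 4 were lower in males at an adjusted p under 0.05 (6.2% of all genes tested) and 0 higher. Of the 4, 3 passed the fold threshold, where 3.06% of all genes tested were called lower. The median log2 fold change was -0.38. The 3 called genes encode inhibitors of cytokine receptors. Other inhibitor genes of the list were not called. *cisha*, *cishb* and *socs2* had log2 fold changes of -0.38, 0.55 and -0.76, and *sh2b3*, *cbl* and *cblb* had -2.07, 0.07 and -0.35. Their edgeR adjusted p-values were 0.359 or more. *socs1a* averaged 9.59 ± 4.40 CPM in males (SD, n = 4) and 43.4 ± 34.7 CPM in females (SD, n = 5), a log2 fold change of -2.18 ± 0.56 (SE, edgeR adjusted p = 0.0288). *socs3b* had a log2 fold change of -1.78 ± 0.43 (SE, edgeR adjusted p = 0.0207), and the phosphatase gene *ptpn6* had -1.503 ± 0.28 (SE, edgeR adjusted p = 0.00703), at the fold threshold.

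The survival kinase gene *pim1* was lower by less than the fold threshold (-1.19 ± 0.28, SE, edgeR adjusted p = 0.0200). All 4 genes had every male library below every female library, as for 8.06% of all genes tested. Of the 17 genes of the list 5 had no overlap, against 16.5% of all genes in either direction. These genes act downstream of many cytokine receptors, and in the same libraries the macrophage and neutrophil markers were at the levels given with *spi1b*, whose part was not tested. The count of 3 was 0 without pkd1M1, 1 without F4 and 0 without both libraries named with pkd1. *stat5a* had 0 to 1.95 CPM in males and 3.33 to 10.004 CPM in females (log2 fold change -2.87 ± 0.97, SE, edgeR adjusted p = 0.0781), and *socs3a* a log2 fold change of -1.34 ± 0.56 (SE, edgeR adjusted p = 0.152). The kinase genes *jak2a* and *jak2b* had 0.18 ± 0.25 and -0.10 ± 0.16 (SE), and *stat5b*, the paralog of *stat5a*, had -0.02 ± 0.30 (SE).

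Of 18 genes of the red cell membrane and skeleton tested, 1 was higher and 1 lower in males at an adjusted p under 0.05, a share below the 13.2% of all genes tested, and 0 passed the fold threshold as well by edgeR or DESeq2. At an unadjusted edgeR p under 0.05 there were 4 of 18, against 26.8% of all genes. The median log2 fold change was -0.26. *stom*, which encodes the membrane protein stomatin, averaged 86.2 ± 16.3 CPM in males (SD, n = 4) and 48.3 ± 8.99 CPM in females (SD, n = 5), a log2 fold change of 0.83 ± 0.20 (SE, edgeR adjusted p = 0.0203). *add2*, which encodes beta-adducin of the spectrin skeleton, averaged 37.7 ± 17.3 CPM in males (SD, n = 4) and 81.5 ± 18.8 CPM in females (SD, n = 5), a log2 fold change of -1.11 ± 0.33 (SE, edgeR adjusted p = 0.0490). The stretch-gated channel gene *piezo1* (-1.04 ± 0.31, SE, edgeR adjusted p = 0.0508) and the water channel gene *aqp1a.1* (-0.80 ± 0.25, SE, edgeR adjusted p = 0.0629) missed the threshold. The spectrin gene *sptb* had -0.32 ± 0.35 (SE), the ammonium channel gene *rhag* -0.19 ± 0.22 (SE), and *epb41b*, for protein 4.1, 0.05 ± 0.32 (SE).

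**Figure D5:**
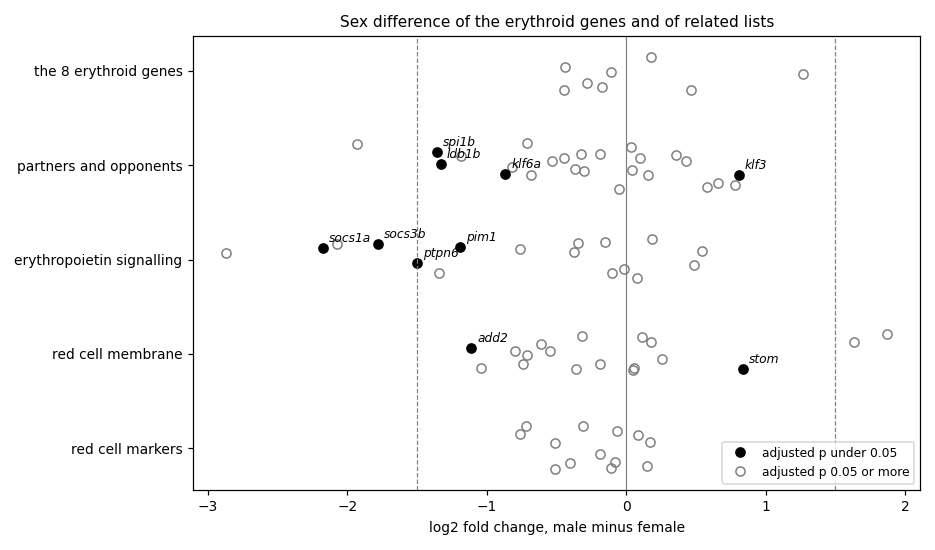
Log2 fold change, male minus female (horizontal axis), of the 8 erythroid genes and of the tested genes of 4 related lists (a line for each list, with points spread vertically only for legibility). Filled points have an edgeR adjusted p under 0.05 and dashed lines mark the fold threshold of 1.5. The 8 erythroid genes and the red cell markers have no filled point, and the filled points of erythropoietin signalling (-2.18 to -1.19) are all on the female side.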

How the data were processed

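RNA of male and female zebrafish kidneys was isolated with TRIZOL, and libraries were made with a TruSeq kit per the labels. The authors pseudoaligned paired-end reads with Kallisto (GRCz11 in the study's methods, GRCz10 in the submitters' processing notes) and summed transcripts to genes with tximport. The deposited table holds an estimated count for each gene, a whole number scaled up to library size. The column names give the scaling as scaledTPM and the methods as lengthScaledTPM, which differ in how gene length enters, so levels were not compared between genes. Coordinates are those of the deposited table. Columns were matched to samples by sex and number. The columns pkd1M1, pkd1M4 and F6 show only a sex and were used as libraries of that sex, and 0 columns of sample values were left unused. The methods give 5 sets of kidneys of each sex, and 4 male and 5 female libraries were analysed here.

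Genes were filtered with filterByExpr, normalized with TMM and tested by quasi-likelihood without covariates (edgeR 4.0.16, R 4.3.3). SEs and 95% intervals were derived from the F statistic. Single values were tested with exact permutation tests over libraries, 2-sided, with Benjamini-Hochberg adjustment over the 15 ratios and over the 21 correlations. Log scales of single genes used CPM + 0.5. The alternatives were RLE factors, total counts alone, no filter, a minimum of 10 counts per library, DESeq2 1.42.0, each library left out, no libraries named with pkd1, a replicate block, no fold limit and a pseudocount of 2. The fit of the block's 4 libraries without the block, and the ratios without the libraries named with pkd1, were added after seeing the data. The tests of the 21 correlations, with their omissions of libraries, and the CVs were also not among the results planned beforehand. The 8 genes and all lists were chosen with earlier results of these data known. Besides the 8 genes, the text names from each pathway list the genes with an adjusted p under 0.05 and the next 2 by p, plus the 3 genes most correlated with each of the 8. Named after their values were seen were *ldb1a*, *zfpm1*, *gfi1b*, *epob*, *slc4a1b*, *jak2a*, *jak2b*, *stat5b*, *sptb*, *rhag*, *epb41b* and the markers *kdrl*, *fli1b*, *mmp9*, *nccrp1*, *lect2l*, *cfl1l*, *zap70*, *il7r*, *mfap4*, *csf1ra*, *selp*, *itga2b*, *h1m*, *zp2.2*, *odf3b* and *alas2*. So were the red cell markers *hbaa1*, *hbaa2*, *hbba2*, *blvrb*, *urod*, *tfr1a* and *nt5c3a*. The signalling genes *cisha*, *cishb*, *socs2*, *sh2b3*, *cbl* and *cblb* were also named after their values were seen. The listed symbols *lyl1*, *erfe* and *epb42* were among those not analysed here, *bcl2l11*, *ank1b* and *tmod1* did not pass the filter, and *ank1a* and *hbba1* are each carried by 2 genes. Reads shared by near-identical globin genes were divided by estimation.

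Libraries of the same sex differed by more than sampling noise (in 16 pairs, the lowest chi-square divided by its degrees of freedom was 82.5). On simulated counts of 21187 genes, edgeR recovered past both thresholds 31 of 50 genes changed by a log2 fold of 2, 41 of 50 at 3 and 47 of 50 at 4, with 4 false calls. At a log2 fold of 1, which lies under the fold threshold, 2 of 50 had an adjusted p under 0.05. The changed genes were drawn only from genes of higher mean count, so the recovery does not cover low-count genes such as *epoa*. Other computations used scipy 1.17.1, pandas 2.3.3 and numpy 2.4.6 under Python 3.11.15, with plots from matplotlib 3.10.9.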

Additional observations from a re-analysis of the deposited data

How the results depend on the processing

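None of the 8 erythroid genes was called under any of the alternatives run, 17 for each gene and 16 for *epoa*, which has under 10 counts in F3. The log2 fold changes of *gata1a*, *lmo2*, *hemgn* and *epoa* kept their sign under all of theirs. Without the libraries named with pkd1, *klf1* was at 0.072 and *slc4a1a* at 0.22. With total counts alone *tal1* was at -0.00025. Leaving out each library in turn gave -0.43 to 0.10 for *epor* and -0.41 to 0.048 for *slc4a1a*. Libraries sharing a number in their column names were little alike in their deviations from the sex means (correlation 0.033 for M1 with F1 and -0.031 for M2 with F2). For unlike numbers the values were 0.015 (M1 with F2) and -0.016 (M2 with F1). With so few libraries these correlations cannot decide whether libraries of the same number share a batch. With the replicate block over M1, M2, F1 and F2, *slc4a1a* was at 0.028 and 859 genes were called. Without a block over the same 4 libraries, 355 genes were called, with *slc4a1a* at 0.00089 and *tal1* at -0.010. None of the 8 genes was called with or without the block. The number of genes called was 1448 with all libraries, 635 without the libraries named with pkd1, 2928 with no fold limit and 1086 to 1707 with each library left out. Partners and opponents had 0 called with all libraries, 2 with total counts alone, 4 with no fold limit and 0 to 1 with each library left out. Erythropoietin signalling had 3, and had 0 without the libraries named with pkd1, 0 with the replicate block, 0 without it over the same libraries and 0 to 3 with each library left out. The red cell membrane list had 0, and 2 with no fold limit. Among the ratios, a pseudocount of 2 gave 0.013 for *lmo2* to the red cell markers and 0.029 for *epor* to *slc4a1a*. Without the libraries named with pkd1, *tal1* to *slc4a1a* was -0.082 and *epor* to the red cell markers -0.15. With each library left out, the ratios to the red cell markers ranged from -0.096 to 0.26 for *klf1*, -0.28 to 0.24 for *lmo2* and -0.16 to 0.12 for *hemgn*, and *epor* to *slc4a1a* from -0.23 to 0.32. The cause of these changes was not tested. With 4 and 5 libraries, the intervals of the 8 genes leave room for differences as large as their ends. Kidney was sampled whole, and summed red cell marker RNA differed between libraries.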

Other observations

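Other blood lineages were described by the same kind of marker lists, beside the red cell markers, of which 10 of 13 had a log2 fold change below 0 and 0 of 13 an edgeR adjusted p under 0.05. Over all genes tested, 51.8% were below 0, and at an edgeR adjusted p under 0.05 there were 6.2% lower and 7.02% higher. Of 8 macrophage markers, 8 had a log2 fold change below 0 and 6 were lower at an edgeR adjusted p under 0.05, with a median of -1.20, against -0.03 over all genes tested. *mfap4*, which encodes a microfibril-associated glycoprotein, averaged 27.8 CPM in males and 178 CPM in females (log2 fold change -2.68 ± 0.53, SE, edgeR adjusted p = 0.00908), and the receptor gene *csf1ra* 6.27 CPM in males and 28.6 CPM in females (-2.19 ± 0.38, SE, edgeR adjusted p = 0.00450). Of 9 neutrophil marker genes, 3 were lower (*mmp9*, *nccrp1* and *lect2l*) and 1 higher (*cfl1l*) at an edgeR adjusted p under 0.05. Of 11 lymphocyte markers, summed to 40.4 to 79.3 CPM in males and 76.7 to 154 CPM in females, 11 had a log2 fold change below 0 and 2 (*zap70* and *il7r*) an edgeR adjusted p under 0.05. Of 7 markers of blood stem and progenitor cells, 5 were below 0 and 0 had an edgeR adjusted p under 0.05 (2 at an unadjusted p under 0.05).

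Of 7 thrombocyte marker genes tested, *selp*, which encodes the adhesion receptor P-selectin, was lower in males (59.0 CPM in males and 115 CPM in females, log2 fold change -0.96 ± 0.18, SE, edgeR adjusted p = 0.00600). *itga2b*, the marker integrin of these cells, had 43.2 CPM in males and 32.1 CPM in females (0.43 ± 0.26, SE, edgeR adjusted p = 0.349). In haem synthesis, *alas2*, for its first and rate-limiting enzyme in red cells, averaged 247 CPM in males and 419 CPM in females (-0.76 ± 0.32, SE, edgeR adjusted p = 0.148). The most abundant red cell marker, a gene listed as *hbba1* (ENSDARG00000089087), averaged 12615 CPM in males and 17964 CPM in females (-0.51 ± 0.41, SE, edgeR adjusted p = 0.496). Testis markers summed to 29.1 to 74.6 CPM in males and 9.45 to 77.5 CPM in females, and *tssk6* was at 0 in every library. The highest sum was that of F1, which also had the highest oocyte sum. Of 5 testis markers tested, 3 had a log2 fold change below 0, and *odf3b* was called higher in males (1.70 ± 0.42, SE, edgeR adjusted p = 0.0243), as were 3.48% of all genes tested.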
